A study of Rattus norvegicus with 6 samples.

Results

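The genes described are 10 that carry the circadian clock's signal outward or set its pace: the PAR bZIP genes Dbp, Tef and Hlf, their antagonist Nfil3, the receptor genes Rora and Rorb, the repressor genes Bhlhe40 and Bhlhe41, and the casein kinase 1 genes Csnk1d and Csnk1e. They were chosen by name, and each matched 1 of the 32883 rows of the deposited count table. RNA came from the established rat line GH4C1, whose pituitary cells make growth hormone and prolactin and which the labels give as wild type; the cells had been exposed to psoralen, which crosslinks RNA strands that are base-paired with each other. RNA recovered with oligo pool A (3 libraries) or oligo pool B (3 libraries) was sequenced, in a study seeking RNAs in direct contact with Neat1, the long noncoding RNA that scaffolds nuclear bodies called paraspeckles. Cell line, genotype and crosslinking were common to all libraries. The labels do not give the sequences in either pool, whether a pool served as a control, or when cells were harvested relative to any synchronisation, and input RNA was not analysed here.

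The clock of mammalian cells is a transcriptional loop in which CLOCK and BMAL1 (encoded by Arntl) activate genes through E-boxes, and the PER and CRY products repress them. DBP, TEF and HLF activate genes through D-boxes and NFIL3 represses at the same sites, the ROR receptors activate Arntl through ROR elements, and BHLHE40 and BHLHE41 (DEC1 and DEC2) repress at E-boxes. The kinases CK1 delta and CK1 epsilon phosphorylate PER proteins and so affect how long they persist. In pituitary GH4C1 cells, paraspeckles have been described as rhythmic structures that retain RNAs in the nucleus, which places transcripts of the clock among those of interest in a Neat1 pull-down.

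Of the 10 genes, 8 had a window in RefSeq's promoter table for assembly GRCr8, which covers the bases just before and after the start site the table uses, and these windows were searched on both strands for the motifs named above. Hlf and Csnk1d had no window and were not searched, and for no gene were bases outside its window searched. The E-box CACGTG was found in 3 of the 8, and in 6.42% of all 33469 windows of that length. The following stretches of 30 bases are shown because they carry what these 3 genes share in sequence, with the E-box in capitals; it begins 198 bases before the start site in Tef, 220 in Bhlhe40 and 48 in Bhlhe41. They lie at chr7:115206617-115206646 (+ strand), chr4:143174218-143174247 (+ strand) and chr4:180569386-180569415 (- strand).
Tef: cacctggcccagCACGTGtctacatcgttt
Bhlhe40: agcgttgtccaaCACGTGagactcatgtga
Bhlhe41: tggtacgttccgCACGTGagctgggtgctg
The D-box, searched as TTATGTAA or TTACGTAA, and the ROR element, searched as TAGGTCA, matched in 0 of the 8 windows, against 1.01% and 2.63% of all windows. These matches describe the letters of a fixed window, and the pull-down did not measure binding there.

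The prolactin lineage could be read in the recovered RNA. Prl was present with 1920 to 2578 counts in the pool A libraries and 909 to 1326 in the pool B libraries, and Gh1, Pou1f1 and Pitx1 had at least 71 counts in every library, whereas Drd2 and Ghrhr were at 0 in all 6. Of 15 markers of other pituitary and non-pituitary cells, 14 were in the table, 3 of these (Tshb, Fshb and Kdr) were at 0 throughout, and their summed level was 72.4 to 96.9 CPM (a library's counts scaled to a common total) with pool A and 87.6 to 99.7 with pool B. Of the 8 markers of both kinds that were tested, 4 differed between the pools, against 40.6% of all tested genes: Prl and Pitx1 were higher with pool A (log2 fold changes of pool A over pool B 0.83 and 1.22; edgeR adjusted p = 1.26e-05 and 5.14e-05), as was the stem cell marker Sox2 (1.13; 0.00048), and the gonadotroph hormone gene Lhb was higher with pool B (-1.68; 1.99e-05). Sox2 had 154, 115 and 165 counts with pool A and 56, 39 and 78 with pool B. Lhb had 39, 23 and 51 counts against 120, 73 and 119. The lineage marker Pitx1 had 213, 161 and 254 against 82, 76 and 71, so these 3 genes had counts of a similar order. Gh1 (0.18; 0.33), Pou1f1 (-0.23; 0.245), the corticotroph gene Tbx19 (-0.56; 0.517) and the macrophage gene Cd68 (-0.44; 0.413) did not pass. The second corticotroph marker, Pomc, had 11, 0 and 11 counts with pool A and 0, 4 and 0 with pool B. The second leukocyte marker, Ptprc, had 6, 1 and 18 counts against 0 in every pool B library. S100b, listed beside Sox2, had 3, 0 and 0 counts with pool A and 0, 0 and 7 with pool B. Of the gonadotroph markers listed beside Lhb, Nr5a1 had 6, 3 and 0 counts against 10, 6 and 8. Gnrhr had 0, 0 and 0 against 1, 0 and 0. The fibroblast markers Pdgfra and Col1a1 had 16, 7 and 7 against 1, 6 and 2, and 3, 0 and 0 against 3, 1 and 1. All of these were below the expression filter and were not tested. The part of these markers in the differences of the 10 genes was not tested. Total counts per library were between 1826390 and 3685899, and a run of 22 rows around the ribosomal RNA gene Rn5-8s took between 6.07% and 22.9% of them.

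Of the 10 genes, 4 differed between the pools: Dbp, Csnk1e and Rorb were higher with pool B, and Csnk1d was higher with pool A. All 10 passed the expression filter and were tested with edgeR's quasi-likelihood test, with p-values adjusted over 11582 genes and a threshold of 0.05. Among all tested genes 40.6% were called, 22.0% as higher with pool B and 18.6% as higher with pool A, so 4 of 10 lies near the share of genes in general. The median log2 fold change (pool A over pool B) of the 10 was -0.11, against 0.02 over all tested genes. The CPM ranges of pool A and pool B were apart for 5 of the 10, and for 49.1% of tested genes. The members are thus described one by one and not as a group that stood apart. A difference in how well a pool captured a transcript and a difference in how much of it the cells held cannot be told apart in these data.

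**Figure D1:**
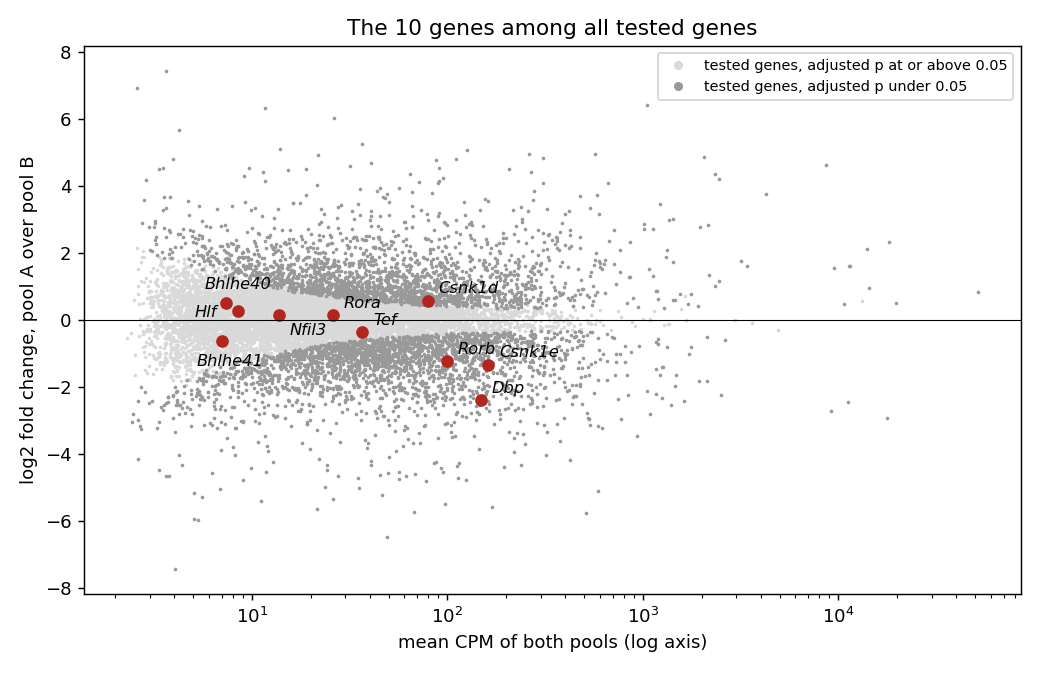
Each point is a tested gene, with the mean CPM of both pools on a log axis and the log2 fold change of pool A over pool B on the vertical axis. The 10 genes are in red and named; Dbp, Rorb and Csnk1e lie below -1, Csnk1d lies at 0.58, and the others lie among genes that were not called.

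Among the D-box factors, Dbp showed the largest difference of the 10. Its counts were 205, 102 and 107 in pool A replicates 1, 2 and 3 and 774, 452 and 660 in pool B, which is 55.6, 40.3 and 33.6 CPM against 263.8, 247.5 and 249.7 CPM. Every pool B library lay far above every pool A library, and the pool B libraries lay close together. The means were 43.2 ± 11.3 CPM (SD, n = 3) and 253.7 ± 8.9 CPM (SD, n = 3). The fit estimated a 5.26-fold difference in favour of pool B, or on the log2 scale -2.40 ± 0.18 (SE; edgeR adjusted p = 1.34e-11). In size this exceeded the change of about 95.5% of tested genes.

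Tef, whose product binds the same D-boxes, did not differ past the threshold. Its levels were 25.5, 25.7 and 39.8 CPM with pool A and 54.5, 39.4 and 34.4 CPM with pool B, so that pool A replicate 3 lay within the pool B range. In the fit its log2 fold change was -0.36 ± 0.25 (SE; 95% interval -0.87 to 0.14; edgeR adjusted p = 0.261). The interval of Tef does not reach that of Dbp, which runs from -2.76 to -2.03.

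Hlf, the third PAR bZIP gene, was sparsely counted, with 8, 31 and 40 counts in pool A and 22, 9 and 31 in pool B. The pools overlapped over most of their range, and the lowest count was a pool A library. It had a log2 fold change of 0.25 ± 0.56 (SE; 95% interval -0.90 to 1.41; edgeR adjusted p = 0.761), which leaves a difference of over 2-fold in favour of pool A within the interval. The value was -0.19 with limma-voom, -0.061 without pool A replicate 2 and -0.0063 without pool A replicate 3, so no direction can be given.

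Nfil3 encodes the repressor that competes at D-boxes. It had 46, 21 and 64 counts with pool A and 32, 39 and 25 with pool B, or 8.31 to 20.1 CPM and 9.46 to 21.4 CPM. The pools covered nearly the same range. The fitted log2 fold change was 0.14 ± 0.41 (SE; 95% interval -0.70 to 0.98; edgeR adjusted p = 0.826).

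**Figure D2:**
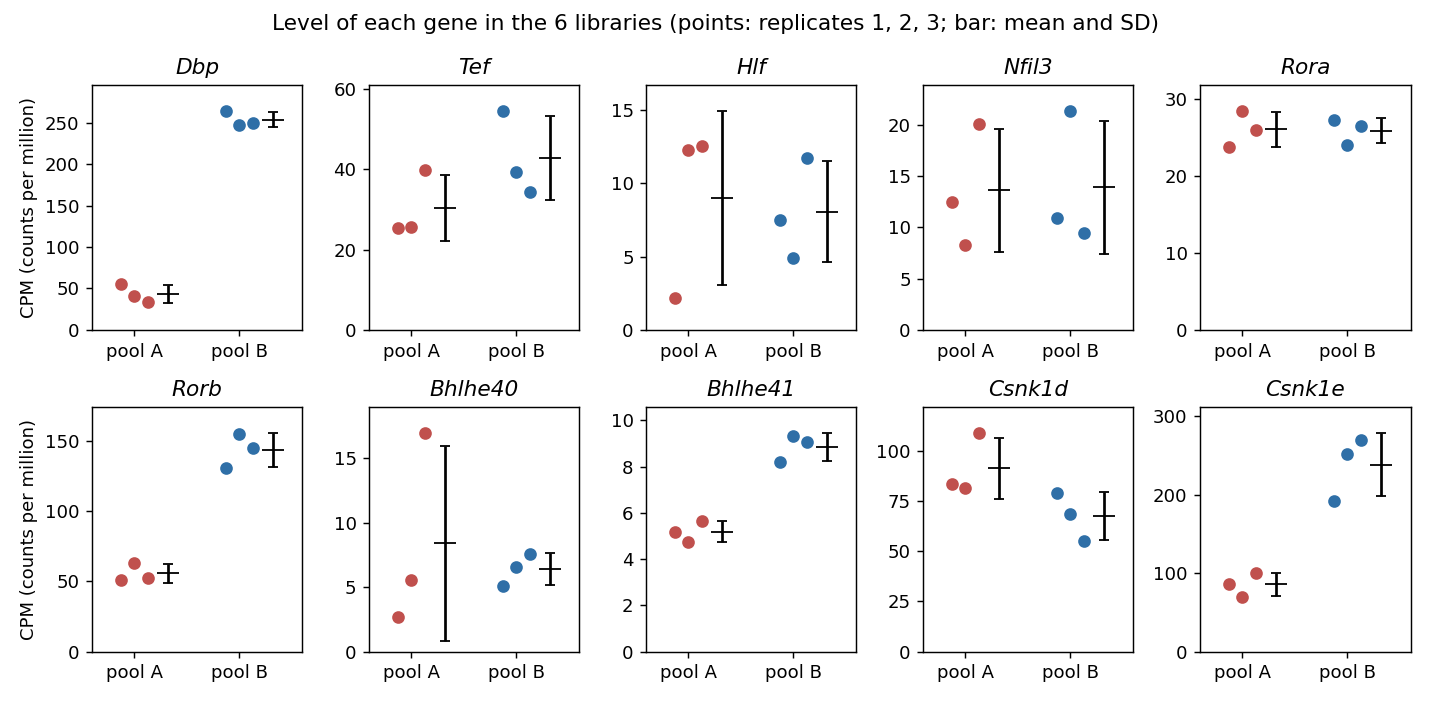
CPM of each gene in the 6 libraries, with replicates 1, 2 and 3 as points from left to right in each pool and the mean and SD as a bar beside them; each panel has its own axis from 0. Points of the pools are apart for Dbp, Rorb, Bhlhe41, Csnk1d and Csnk1e, and mixed for Tef, Hlf, Nfil3, Rora and Bhlhe40.

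Of the ROR receptors, which activate Arntl, Rorb passed the threshold and Rora did not. Rorb had 189, 160 and 167 counts with pool A and 384, 283 and 383 with pool B, or 51.3, 63.3 and 52.4 CPM against 130.9, 154.9 and 144.9 CPM. All pool B libraries were above all pool A libraries. The fit estimated a 2.33-fold difference in favour of pool B, or on the log2 scale -1.22 ± 0.17 (SE; edgeR adjusted p = 1.32e-06).

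Rora had 23.9, 28.5 and 26.0 CPM with pool A and 27.3, 24.1 and 26.5 CPM with pool B, and the libraries of both pools interleaved. The means were 26.1 ± 2.3 CPM (SD, n = 3) and 25.9 ± 1.7 CPM (SD, n = 3). Its difference on the log2 scale was 0.15 ± 0.26 (SE; 95% interval -0.39 to 0.69; edgeR adjusted p = 0.696).

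The E-box repressors Bhlhe40 and Bhlhe41 had few counts. Bhlhe40 had 10, 14 and 54 counts with pool A and 15, 12 and 20 with pool B. Pool A replicate 3 alone set the pool A mean above that of pool B. Over all libraries the log2 fold change was 0.50 ± 0.58 (SE; edgeR adjusted p = 0.535), and it was -0.44 without pool A replicate 3, so no direction can be given.

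Bhlhe41 had 19, 12 and 18 counts with pool A and 24, 17 and 24 with pool B, or 5.15, 4.75 and 5.65 CPM against 8.18, 9.31 and 9.08 CPM. All pool B libraries were above all pool A libraries on this scale, by less than 5 CPM. At this depth the difference did not pass the test, with a log2 fold change of -0.62 ± 0.52 (SE; 95% interval -1.69 to 0.45; edgeR adjusted p = 0.372).

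The casein kinases went in opposite directions. Csnk1e had 319, 177 and 320 counts with pool A and 565, 461 and 713 with pool B, or 86.6, 70.0 and 100.4 CPM against 192.6, 252.4 and 269.8 CPM. No pool A library reached the lowest pool B library. The fit estimated a 2.52-fold difference in favour of pool B, or on the log2 scale -1.33 ± 0.16 (SE; edgeR adjusted p = 1.01e-07).

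Csnk1d had 307, 206 and 347 counts with pool A and 231, 125 and 145 with pool B, or 83.3, 81.5 and 108.9 CPM against 78.7, 68.4 and 54.9 CPM. The pools did not overlap, but the closest libraries lay less than 5 CPM apart. The fit estimated a 1.49-fold difference in favour of pool A, or on the log2 scale 0.58 ± 0.18 (SE; edgeR adjusted p = 0.0118). The call was lost with total counts alone as the scaling (adjusted p = 0.0734) and against a 1.5-fold change (adjusted p = 0.543). It was also lost without pool A replicate 3 (adjusted p = 0.0535) and without pool B replicate 3 (adjusted p = 0.0874), while the direction held in all 16 alternatives. The adjusted p over these ranged from 0.00344 to 0.543.

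**Figure D3:**
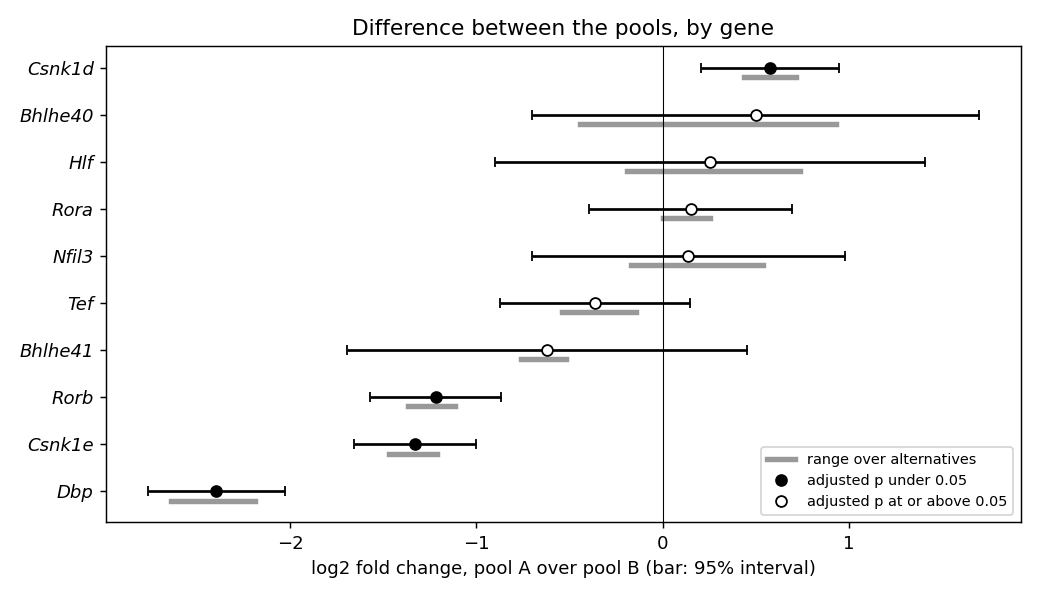
Points give the log2 fold change of pool A over pool B for each gene with its 95% interval, filled where the adjusted p was under 0.05; grey bars give the range over the alternative settings and left-out libraries. The intervals of Dbp, Csnk1e and Rorb lie wholly below -0.8, and that of Csnk1d lies above 0, from 0.21 to 0.95.

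Because an effect past the threshold in a gene and not in its relative does not show that they differ, 8 pairs of related genes were compared through the ratio of their counts within each library. Such a ratio does not depend on the scaling between libraries, and a gene's length cancels when the ratio is compared between pools. With 3 libraries against 3 the exact permutation test cannot give a p under 0.1, so none of these comparisons could pass 0.05.

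The ratio of Csnk1e to Csnk1d was 1.04, 0.859 and 0.922 in pool A replicates 1, 2 and 3, and 2.45, 3.69 and 4.92 in pool B. It was thus higher in every pool B library, by an estimated 3.77-fold (difference in mean log2 ratio, pool A minus pool B, -1.91; exact permutation p = 0.1, two-sided, 0.2 after Benjamini-Hochberg adjustment over the 8 pairs). The ratio of Rorb to Rora was 2.15, 2.22 and 2.01 with pool A and 4.80, 6.43 and 5.47 with pool B. This was an estimated 2.59-fold shift towards Rorb with pool B (exact permutation p = 0.1, adjusted 0.2).

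Dbp was set against the other D-box genes in the same way. The ratio of Dbp to Tef was 2.18, 1.57 and 0.843 with pool A and 4.84, 6.28 and 7.25 with pool B, a 4.23-fold shift (exact permutation p = 0.1, adjusted 0.2). The ratio of Dbp to its antagonist Nfil3 was 4.46, 4.86 and 1.67 with pool A and 24.2, 11.6 and 26.4 with pool B, a 5.86-fold shift (exact permutation p = 0.1, adjusted 0.2). Both ratios were higher in every pool B library than in any pool A library. The ratio of Dbp to Hlf overlapped between the pools, at 25.6 in pool A replicate 1, where Hlf had 8 counts, and 21.3 in pool B replicate 3 (exact permutation p = 0.2, adjusted 0.32).

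The ratios of Tef to Hlf, Tef to Nfil3 and Bhlhe41 to Bhlhe40 overlapped between the pools, with exact permutation p-values of 0.9, 0.4 and 0.4. For Tef to Hlf even the direction depended on a single library, with a difference in mean log2 ratio of -0.37 over all libraries and 0.13 without pool A replicate 2.

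**Figure D4:**
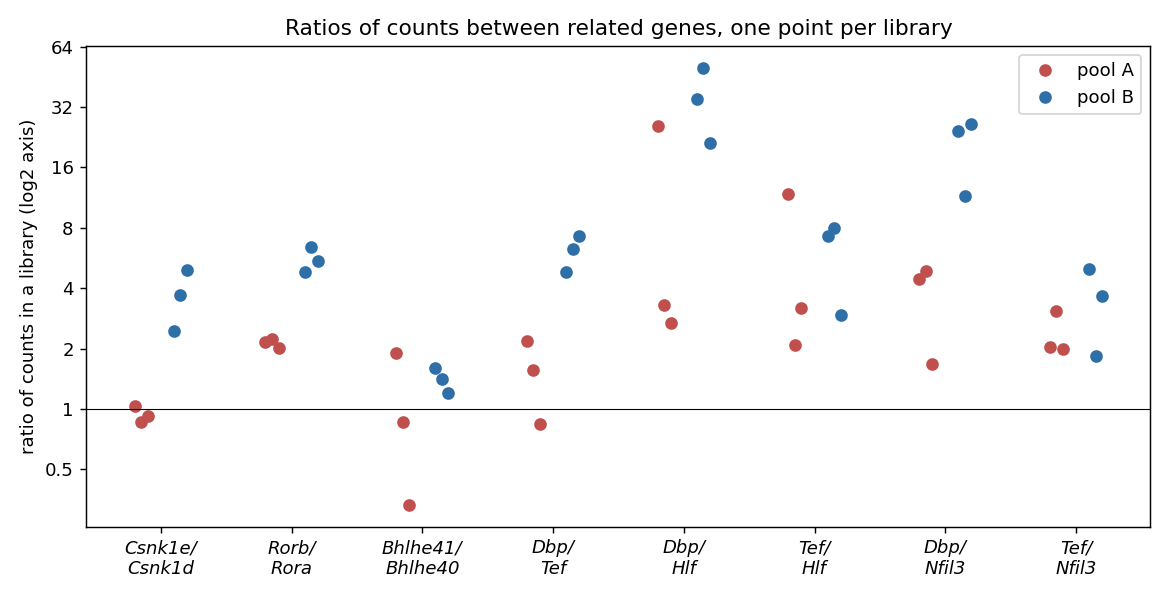
Ratio of the counts of the first gene to those of the second in each library, on a log2 axis, with pool A in red and pool B in blue. Pools are apart for Csnk1e/Csnk1d, Rorb/Rora, Dbp/Tef and Dbp/Nfil3, with pool B higher in each, and overlap for the other pairs.

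Neighbouring rows of the table were examined because reads of adjoining genes can be assigned to either. Sphk2, a sphingosine kinase gene and the row after Dbp, was also higher with pool B, with 178, 74 and 211 counts against 525, 287 and 506. The difference was -1.74 ± 0.19 (SE) on the log2 scale (edgeR adjusted p = 2.87e-08). Ca11, the row before Dbp, had a log2 fold change of 0.21 ± 0.19 (SE; edgeR adjusted p = 0.396). Dbp received 1.15, 1.38 and 0.507 counts per count of Sphk2 with pool A and 1.47, 1.57 and 1.30 with pool B, so this ratio overlapped between the pools. RefSeq's GRCr8 gene list does not place the spans of Dbp and Sphk2 on top of each other, but the annotation used for counting is not given in the sources used here. The part of such neighbours in the Dbp counts was not tested.

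Both rows next to Csnk1e were higher with pool B as well. Kcnj4, a potassium channel gene, had a log2 fold change of -0.87 ± 0.20 (SE; edgeR adjusted p = 0.00083) and Tmem184b one of -0.62 ± 0.17 (SE; edgeR adjusted p = 0.00404), the latter call being lost without pool A replicate 2 (adjusted p = 0.0612). Against a 1.5-fold change both calls were lost (adjusted p = 0.0928 and 0.446). The counts of Csnk1e per count of Tmem184b did not overlap, at 0.732 to 0.978 with pool A and 1.18 to 1.48 with pool B, whereas those per count of Kcnj4 did, at 2.26, 1.97 and 2.58 with pool A and 2.17, 3.34 and 4.24 with pool B. The rows next to Rorb held 0 counts in every library. The row before Tef, Zc3h7b, was higher with pool B by a log2 fold change of -1.78 ± 0.13 (SE; edgeR adjusted p = 1.20e-11), and Tob2 on the other side had one of -0.36 ± 0.25 (SE; edgeR adjusted p = 0.279). For Csnk1d, the RefSeq span overlaps that of Slc16a3, a monocarboxylate transporter gene with 24 to 54 counts in the pool A libraries and 13 to 50 in the pool B libraries. Cd7, the row on the other side of Csnk1d, had 19, 8 and 13 counts with pool A and 13, 0 and 7 with pool B.

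The genes whose profile over the 6 libraries was closest to that of Dbp, by Euclidean distance of log2 CPM, were Afg3l2 (distance 0.488), Rab3gap2 (0.533) and Dync1li2 (0.62). Their log2 fold changes were -2.34, -2.08 and -2.28. Those closest to Csnk1d were Pla2g6 (distance 0.285), Slk (0.304) and Hmg20b (0.316), with log2 fold changes of 0.77, 0.37 and 0.71. Slk did not pass the threshold (edgeR adjusted p = 0.127), and Pla2g6 and Hmg20b did (0.00144 and 0.00267). Against a 1.5-fold change these calls of Pla2g6 and Hmg20b were lost (adjusted p = 0.183 and 0.267). Similar fold changes follow from choosing the genes by profile. None of the 6 belongs to the clock lists used here.

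Other genes of the pathway were read from lists. Of 14 genes of the core loop, 11 were tested and 4 passed the threshold. Arntl, the target of the ROR receptors, was higher with pool B, with 90, 74 and 95 counts against 314, 201 and 289 (log2 fold change -1.83 ± 0.19, SE; edgeR adjusted p = 7.21e-09). Nr1d2, which encodes the REV-ERB beta receptor that opposes the RORs, was higher with pool B as well (-0.72 ± 0.21, SE; edgeR adjusted p = 0.00827), a call lost without pool A replicate 2 (adjusted p = 0.0771) or pool B replicate 3 (adjusted p = 0.126). Timeless and Per3 were higher with pool A, by log2 fold changes of 1.37 ± 0.14 and 0.62 ± 0.18 (SE; edgeR adjusted p = 6.98e-09 and 0.0069). Against a 1.5-fold change the calls of Nr1d2 and Per3 were lost (adjusted p = 0.289 and 0.445). The PER and CRY genes besides Per3 did not pass, and Per1, Per2, Cry1 and Cry2 had log2 fold changes of -0.08, -0.22, -0.75 and -0.63. With total counts alone Cry2 passed (-0.78; edgeR adjusted p = 0.0267), which made 3 core loop genes higher with pool B. The median of the list was -0.08.

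Of 23 genes for other kinases, phosphatases, ubiquitin ligases and related enzymes that act on clock proteins, 22 were in the table and tested, and 11 passed, 7 in favour of pool A and 4 in favour of pool B, with a median log2 fold change of 0.20. These enzymes set the stability or activity of PER, CRY and other clock proteins. Prkaa1, a catalytic subunit of AMP-activated kinase, and Gsk3a, a glycogen synthase kinase 3, were higher with pool B (log2 fold changes -2.62 ± 0.21 and -2.02 ± 0.17, SE; edgeR adjusted p = 3.61e-11 and 7.64e-11), as was the phosphatase gene Ppp1cc (-0.87 ± 0.14, SE; edgeR adjusted p = 1.19e-05). Fbxw7, a ubiquitin ligase subunit, Csnk2a1, which encodes a catalytic subunit of casein kinase 2, and Csnk1a1, the alpha isoform of casein kinase 1, were higher with pool A (1.74 ± 0.17, 1.45 ± 0.17 and 0.90 ± 0.17, SE; edgeR adjusted p = 2.54e-09, 8.86e-08 and 7.92e-05). Csnk2a2, the gene for the alternative catalytic subunit of casein kinase 2, did not pass (0.11 ± 0.28, SE; edgeR adjusted p = 0.80). The number higher with pool A was 3 with total counts alone and 4 without pool B replicate 1. Of the casein kinase 1 genes measured besides these, Csnk1g1 was higher with pool A (0.83 ± 0.33, SE; edgeR adjusted p = 0.0444), a call lost without pool A replicate 2 (adjusted p = 0.124) or 3 (0.0895), without pool B replicate 1 (0.165) or 3 (0.118), with total counts alone (0.109), with no filter (0.0526) and against a 1.5-fold change (0.256). Csnk1g2 and Csnk1g3 had log2 fold changes of 0.12 and -0.07 and did not pass. The counts of 4 of 11 and 11 of 22 stand against 40.6% of all tested genes, and neither list was tested as a set.

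**Figure D5:**
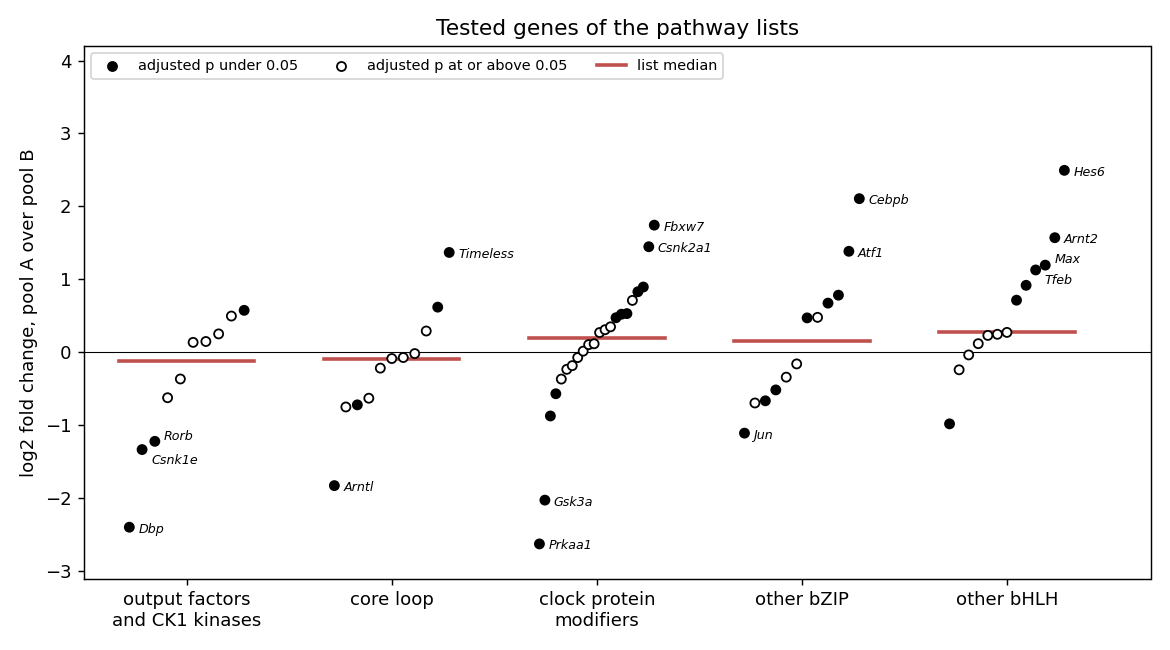
Log2 fold change of pool A over pool B for each tested gene of 5 lists, sorted within a list, filled where the adjusted p was under 0.05, with the list median as a red line. Medians lie between -0.11 and 0.27 while single genes reach from -2.62 (Prkaa1) to 2.50 (Hes6); names are given for called genes beyond 1 in size.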

How the data were processed

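The authors deposited whole-number counts for 32883 rat genes in 6 libraries and a mean signal per pool, which was not used. STAR and featureCounts are named in the submitters' processing notes; genome build, annotation and strand setting are not given in the sources used here, and the labels describe strand-specific paired libraries. Columns were matched to samples by title. The pools were compared on the counts with edgeR 4.0.16 (R 4.3.3; TMM scaling, filterByExpr by pool, quasi-likelihood test, all 6 libraries, Benjamini-Hochberg adjustment over all tested genes). SE follows from the fold change and the F statistic. CPM uses total counts. Ratios add 0.5 to both counts before log2; those printed are of raw counts. Profile distances use log2 CPM on the TMM scale (prior count 2). The code was tested on simulated counts. Members and lists were chosen with earlier results of these data known. Named genes are the 10 members, up to 3 per direction and list with the smallest adjusted p, 3 nearest profiles for the top member in each direction, and table neighbours with at least 10 counts in some library, of which those adjoining Dbp, Tef and the kinases are given. Sirt1 and the marker Pecam1 matched no row by name, and some lineage markers are not reported here. Csnk1g1, its relatives, Csnk2a2, further core-loop genes and the cell type markers were named after their values were seen. No protein sequences were used. Whether libraries came from separate cultures is not stated, so p-values measure the spread between these libraries, which may be technical; the chi-square of 2 libraries of a pool over its degrees of freedom was 5.24 to 7.83, well above sampling noise. The main fit did not pair libraries by replicate number. Deviations of same-numbered libraries correlated with r of 0.0409, -0.0195 and 0.02, and such low values cannot show that they shared no culture or batch. Alternatives included DESeq2 1.42.0 and limma-voom (limma 3.58.1).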

Additional observations from a re-analysis of the deposited data

How the results depend on the processing

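Of 159 refits of the 10 genes, 148 kept direction and side of the threshold; Dbp, Csnk1e and Rorb did so in all 16 each, with log2 fold changes from -2.64 to -2.19, -1.47 to -1.21 and -1.37 to -1.12. Csnk1d lost its call with total counts alone (0.44) and against a 1.5-fold change (0.58), which left 0 members higher with pool A under each; without a library its log2 fold change ranged from 0.45 to 0.71 and that number from 0 to 1. Directions reversed for Hlf with limma-voom (-0.19). Without a library, values ranged from -0.061 to 0.74 for Hlf, -0.17 to 0.54 for Nfil3 and -0.44 to 0.93 for Bhlhe40, and from -1.08 to 0.13 for the ratio of Tef to Hlf. The test against a 1.5-fold change, stricter by construction, left 1156 and 1521 of all tested genes higher with pool A and pool B, 1 and 1 core loop genes, 3 modifier genes higher with pool A, 2 and 0 other bZIP genes and 3 and 0 other bHLH genes. Total counts alone left 3 modifier genes higher with pool A. Without a library, core loop genes higher with pool B numbered 1 to 2, modifiers higher with pool A 4 to 7 and other bHLH genes higher with pool B 0 to 1. The split of all calls moved with the scaling, with 45.8% higher with pool A under TMM, 36.9% with total counts and 52.8% with upper-quartile factors, whose median log2 fold changes over all genes were 0.02, -0.13 and 0.12. With the replicate block, 2085 and 2476 genes were called and no member changed its call. Of 766 refits of 48 further named genes, 28 lost a call, 2 gained it (Cry2 with total counts and Slk with upper-quartile factors) and 11 reversed, all 11 for genes that were not called: Csnk1g2 and Csnk2a2 with total counts (-0.026 and -0.041), Csnk1g3 and Per1 with upper-quartile factors (0.032 and 0.018), and Csnk1g3, Per1, Per2 and Csnk2a2 without a library (-0.27 to 0.064, -0.18 to 0.0069, -0.44 to 0.039 and -0.078 to 0.39). Why Csnk1d, Hlf, Bhlhe40 and Nfil3 moved was not tested. Hlf and Bhlhe40 had at most 54 counts in a library and Nfil3 at most 64, and their SEs were 0.56, 0.58 and 0.41 on the log2 scale. Bhlhe41, with at most 24 counts and an SE of 0.52, kept direction and side of the threshold in all 16 alternatives. The protein comparison was not run, since no protein sequences were used here.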

Other observations

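Relatives of the D-box factors and of the E-box repressors were also read from lists; among all tested genes 40.6% were called, 18.6% as higher with pool A and 22.0% as higher with pool B, and neither list was tested as a set. Of 15 other bZIP genes, 12 were tested, with 5 called in favour of pool A and 3 in favour of pool B. Cebpb and Atf1 were higher with pool A (log2 fold changes 2.11 ± 0.30 and 1.39 ± 0.19, SE; edgeR adjusted p = 1.73e-06 and 9.04e-07), as was the stress response gene Atf4 (0.68 ± 0.13, SE; edgeR adjusted p = 0.000145). Cebpg and Jun were higher with pool B (-0.66 ± 0.14 and -1.11 ± 0.32, SE; edgeR adjusted p = 0.000441 and 0.00718), and so was Mafk (-0.51 ± 0.19, SE; edgeR adjusted p = 0.0336), whose call was lost with upper-quartile factors (adjusted p = 0.0891), with no filter (0.0555), against a 1.5-fold change (0.665) and without any 1 of 4 libraries (up to 0.147). Against a 1.5-fold change the calls of Atf4, Cebpg and Jun were lost as well (adjusted p = 0.27, 0.315 and 0.0697). The list had a median log2 fold change of 0.16.

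Of 17 other bHLH genes, 13 were tested, with 6 higher with pool A and 1, Usf1, higher with pool B. Hes6, a HES family gene, had 839, 352 and 425 counts with pool A and 87, 89 and 60 with pool B (log2 fold change 2.50 ± 0.24, SE; edgeR adjusted p = 1.28e-09). Arnt2 and Max followed with 1.57 ± 0.23 and 1.20 ± 0.29 (SE; edgeR adjusted p = 2.90e-06 and 0.00146). Usf1 had -0.98 ± 0.27 (SE; edgeR adjusted p = 0.00415), a call lost without pool B replicate 3 (adjusted p = 0.0536) and against a 1.5-fold change (0.0861). The median of the list was 0.27.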
